A study of Mus musculus with 30 samples.

Results

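SMC1 binding was compared between 2 lines of NIH3T3, an immortalized mouse embryonic fibroblast line, from the 2 SMC1 ChIP-seq samples among the 30 samples of the series. All SMC1 regions on chromosomes 1 to 19 were taken, 104020 from empty-vector cells and 100107 from BORIS cells. These 204127 regions were part of 570441 regions in 6 cohesin lists, which also covered RAD21 and SMC3 in the same lines. The empty-vector line, NIH3T3+EV, stably expressed beta-galactosidase from a CpG-free plasmid, and whether it was a clone is not given in the sources used here. The BORIS line, NIH3T3+BORIS (clone2), stably expressed BORIS from a CpG-free plasmid and was a single clone, number 2. The promoter of the plasmids is not given in the sources used here. Each line had 1 SMC1 library, made with the same antibody from cells fixed in 1% formaldehyde for 10 min and sheared to 200 to 600 bp. No difference between the lines therefore has a replicate check, and no test was made. A clone and the vector it carries cannot be told apart with 1 line a side. The lists hold no transcript levels, so neither fibroblast markers nor BORIS itself could be checked in them.

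SMC1 is a rod-shaped ATPase subunit that pairs with SMC3, and RAD21 closes the pair into the cohesin ring. The ring travels along chromatin, forms loops and is held at sites where the zinc finger protein CTCF is bound. BORIS (CTCFL) is a germline paralogue of CTCF that shares its DNA-binding domain and differs from it outside that domain. The comparison asks where SMC1 lies when BORIS is expressed in a somatic cell.

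The SMC1 lists of both lines were similar in size and shape. The median region was 237 bp wide in empty-vector cells and 222 bp wide in BORIS cells, and the regions covered 31.2 Mb and 28.1 Mb. Strength was read as the pileup, the number of fragments over the summit, which is the position of highest fragment density in a region. The median pileup was 20 fragments in the empty-vector list and 19 in the BORIS list. The strong end differed more: the 90th percentile was 76 fragments in empty-vector cells and 56 in BORIS cells. The genome-wide background was 0.988 fragments per position in the empty-vector library and 1.02 in the BORIS library. Dividing it by the narrowest region of each list, 116 bp and 121 bp, gave 8.52 and 8.42 fragments per kb, a stand-in for depth by which the libraries were nearly equal. The highest pileup of each list was 2 times its narrowest region, 232 and 242 fragments, so pileup had a ceiling. Pileups above 50% of that ceiling were 3.81% of the empty-vector regions and 1.04% of the BORIS regions.

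Most SMC1 regions of either line were also called in the other. Of the empty-vector regions, 76350 (73.4%, exact 95% binomial interval 73.1 to 73.7%) shared at least 1 bp with a BORIS region. Of the BORIS regions, 77627 (77.5%, 77.3 to 77.8%) shared at least 1 bp with an empty-vector region. The 27670 empty-vector-only regions were 26.6% of their list, and the 22480 BORIS-only regions were 22.5% of theirs. BORIS cells thus had 0.812 times as many regions of their own (0.798 to 0.827). These intervals cover counting error only, and neighbouring regions are not independent. Where an empty-vector region met a single BORIS region, the median overlap was 100% of the shorter region, and 112 of 73082 such overlaps (0.153%) were of 10 bp or less. Counted in bases, 21.1 Mb was shared, which was 67.4% of the empty-vector bases and 75.0% of the BORIS bases.

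Whether a region was called in the other line followed its strength. The lists were cut into 10 equal classes ranked by −log10 p. In the weakest class of the empty-vector list, 33.8% of regions were called in BORIS cells. That share was 72.3% in the fifth class and 97.6% in the eighth. In the strongest class, 10412 of 10412 empty-vector regions were called in BORIS cells. The BORIS list was flatter, from 53.9% called in empty-vector cells in its weakest class to 73.6% in the fifth and 93.4% in the eighth. Its strongest class had 10012 of 10025 regions called in empty-vector cells, so 13 strong BORIS regions had no empty-vector counterpart. Grouped by pileup, 27.5% of empty-vector regions under 10 fragments and 86.7% of those with 20 to 29 were called in BORIS cells. For BORIS regions the same pileups gave 44.0% and 87.9%. At 100 fragments or more, 1 of 6104 empty-vector regions and 3 of 2304 BORIS regions lacked a counterpart.

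**Figure D1:**
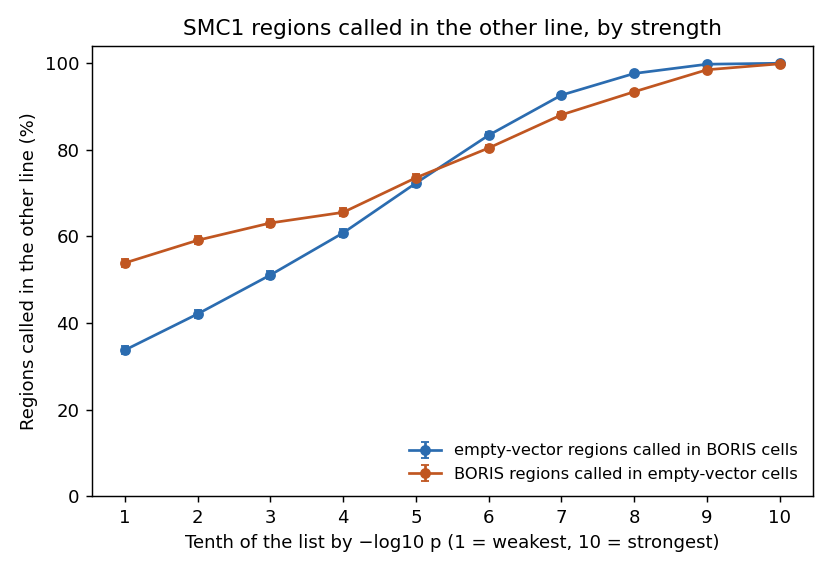
Share of SMC1 regions (%) called in the other line, for 10 equal classes of a list ranked by −log10 p from weakest (1) to strongest (10), with exact 95% binomial intervals. Empty-vector regions (blue) rose from 33.8% to 100% and BORIS regions (orange) from 53.9% to 99.9%, and the curves crossed after the fifth class.

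Regions called in 1 line were narrow and low. Empty-vector-only regions had a median width of 157 bp and a median pileup of 13 fragments, against 286 bp and 26 fragments for empty-vector regions called in both lines. BORIS-only regions had a median width of 151 bp and a median pileup of 13 fragments, against 259 bp and 22 fragments. From the 10th to the 90th percentile, pileups ran from 9 to 20 in empty-vector-only regions and from 9 to 21 in BORIS-only regions, so both sets spanned nearly the same levels. A −log10 q of 10 or more was found in 18.0% of BORIS-only regions and 13.4% of empty-vector-only regions. That cut lies near the list medians, 11.2 in empty-vector and 10.1 in BORIS cells. It was met by 55979 of all 104020 empty-vector regions and 50421 of all 100107 BORIS regions. Counted above this cut, with the other list as deposited, BORIS cells had 4038 regions of their own and empty-vector cells 3712. The ratio was 1.09 (1.04 to 1.14), in the opposite direction to that over all regions. With the same minimum applied to both lists, the counts were 9576 and 15340 and the ratio 0.624, so the direction depends on how the other list is cut. Within 100 bp of a region of the other line lay 5.74% of empty-vector-only and 5.50% of BORIS-only regions. Within 1 kb these shares were 30.0% and 27.6%. The nearest SMC1 summit of the other line was a median of 3658.5 bp from empty-vector-only summits and 3657.5 bp from BORIS-only summits.

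RAD21 and SMC3, the ring partners of SMC1, gave a readout at these regions that the SMC1 lists did not use. BORIS-only SMC1 regions overlapped an SMC3 region of BORIS cells in 63.5% of cases and of empty-vector cells in 25.3%. For RAD21 the shares were 35.5% in BORIS cells and 13.1% in empty-vector cells. At empty-vector-only SMC1 regions, SMC3 was called in 47.7% in empty-vector cells and in 30.5% in BORIS cells. RAD21 was called there in 34.3% and 17.6%. Both partners were thus called more often in the line that had the SMC1 region. At SMC1 regions called in both lines the shares were close between lines, 80.0% and 78.1% for RAD21 and 88.4% and 88.8% for SMC3 over the empty-vector regions.

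The 2 private sets were not equally backed. Both partners in the same line and neither in the other marked 3703 BORIS-only regions (16.5%) and 2520 empty-vector-only regions (9.11%). At regions called in both lines this pattern made up 1.73% of the BORIS and 1.86% of the empty-vector list. The opposite pattern, both partners in the other line only, was found at 171 BORIS-only (0.761%) and 291 empty-vector-only regions (1.05%), against 1.97% and 1.79% of regions called in both lines. None of the 4 partner lists had a region at 38.2% of empty-vector-only and 27.5% of BORIS-only SMC1 regions, against 4.19% of empty-vector regions called in both lines. All 4 partner lists had a region at 8.52% of empty-vector-only and 5.01% of BORIS-only regions, sites where SMC1 was called in 1 line and its partners in both. That share was 68.5% of empty-vector and 68.1% of BORIS regions called in both lines. The SMC3 BORIS list was longer than the SMC3 empty-vector list, at 105041 against 98604 regions, while the RAD21 lists held 80268 and 82401. The part of list length in these shares was not tested.

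The private regions named here were the 3 of each line with the highest −log10 p that were at most 3 kb wide and more than 1 kb from any region of the other line. Coordinates are as deposited, counted from 1, and mm9 is the mouse build that the submitters’ processing notes name. Genes at these positions were not assigned here. The strongest empty-vector-only region, chr12:55306213-55306527, had an SMC1 pileup of 68 fragments and a fold of 27.8 over its local background. RAD21 had 47 fragments there in empty-vector cells and 15 in BORIS cells, and SMC3 had 78 and 31. At chr1:53329594-53329828, SMC1 had 52 fragments in empty-vector cells, with 47 RAD21 and 45 SMC3 fragments beside them. RAD21 had 16 fragments there in BORIS cells, and SMC3 had 19. At chr13:39739313-39739536, SMC1 had 43 fragments, with 51 fragments in empty-vector cells and 14 in BORIS cells for RAD21 and 35 and 11 for SMC3. All 3 sites therefore kept called RAD21 and SMC3 regions in BORIS cells, at lower pileup than in empty-vector cells.

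The BORIS-only sites were of 2 kinds. At chr5:31103646-31103912, SMC1 had 78 fragments and a fold of 32.0 in BORIS cells. RAD21 had 42 and SMC3 73 fragments there in BORIS cells, and neither was called in empty-vector cells. At chr1:173445218-173445522, SMC1 had 115, RAD21 63 and SMC3 99 fragments in BORIS cells, and again neither partner was called in empty-vector cells. At chr6:126453943-126454312, SMC1 had 66 fragments in BORIS cells, and both partners were called in both lines, RAD21 with 8 fragments in empty-vector cells and 24 in BORIS cells and SMC3 with 19 and 72. At 2 of these 3 sites, all 3 antibodies gave a region in BORIS cells and none in empty-vector cells.

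Levels were compared at 69227 pairs, in which an empty-vector region and a BORIS region overlapped each other and no other SMC1 region. The pairs were 66.6% of the empty-vector and 69.2% of the BORIS regions. SMC1 pileup at the pairs had a median of 27 fragments in empty-vector cells and 23 in BORIS cells. Scaled to the genome-wide background of each library, the median BORIS to empty-vector ratio was 0.798 (order-statistic 95% interval 0.796 to 0.801), a log2 difference of −0.32, and BORIS was lower at 73.3% of pairs. The partners were also lower in BORIS cells at their own pairs, with ratios of 0.803 for RAD21 and 0.871 for SMC3. SMC1 ratios ran from −1.12 at the 5th percentile to 0.63 at the 95th on the log2 scale, with an interquartile range of 0.68. Across antibodies in empty-vector cells, the interquartile range was 0.54 for SMC3 over SMC1 and 0.78 for RAD21 over SMC1. The spread between the lines lay between these. Such ranges hold differences between antibodies and subunits as well as scatter of libraries, and do not stand in for a replicate. The ranks of SMC1 pileup in the 2 lines had a Spearman correlation of 0.816 over the 69227 pairs.

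**Figure D2:**
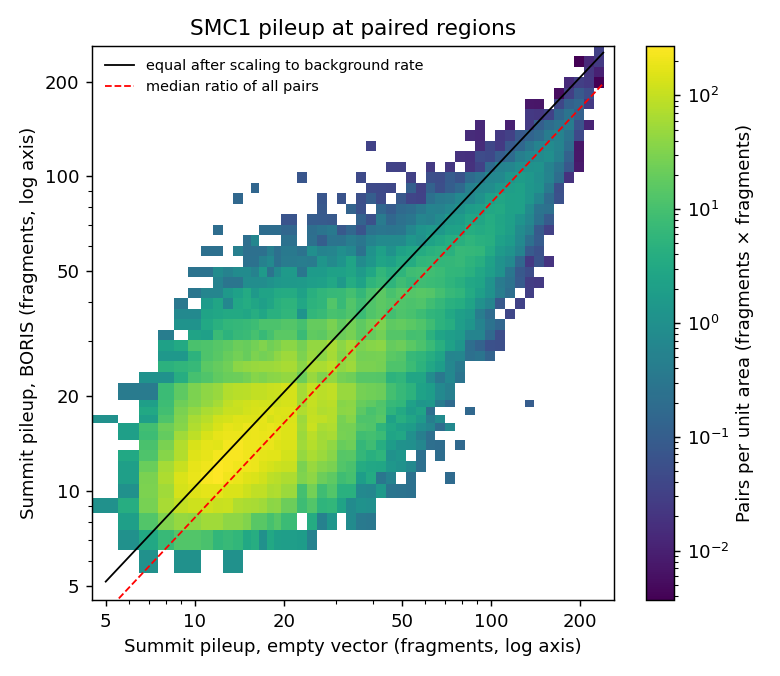
SMC1 summit pileup (fragments, log axes) in empty-vector cells (x) and BORIS cells (y) at the 69227 pairs, coloured by pairs per unit area on a log scale. The bulk lies below the line of equality after background scaling (black) and along the median ratio of 0.798 (dashed red), and the scatter narrows toward the strongest pairs.

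The local backgrounds were compared where summits coincided. At 1341 pairs the summits lay at the same base, and there the ratio of the recovered local backgrounds took 1 of 2 fixed values, 1.03 or 0.989, to within 0.001 in 83.4% of pairs. The first equals the ratio of the genome-wide backgrounds and the second the ratio of the fragments per kb. The other pairs had neither value. The control is not given, and whether both lists were scored against the same one was not tested. These local backgrounds are therefore not read as DNA levels of the lines.

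The lower SMC1 pileup in BORIS cells was clearest at strong pairs. Pileup depends on how well a library was enriched as well as on the SMC1 bound, and these cannot be told apart here. Among the 11540 pairs with a summed pileup under 30 fragments, the median ratio was 0.969 and 58.0% of pairs were lower in BORIS cells. At 30 to 49 fragments, with 23449 pairs, the ratio was 0.862 and 64.8% were lower. At 50 to 99 fragments, with 19854 pairs, the ratio was 0.762 and 77.3% were lower. From 100 to under 200 fragments, with 10792 pairs, it was 0.684 and 93.1% were lower. In the 3592 pairs with 200 fragments or more the ratio was 0.732, and 97.3% were lower. The interquartile range of the log2 ratio over these classes was 0.58, 0.76, 0.70, 0.46 and 0.32, narrowest in the strongest class. Counting error also shrinks as pileup grows, and its part in this narrowing was not tested. Weak pairs enter only where both lists passed the caller's threshold, and the strongest come near the ceiling. With both pileups below 50% of the ceiling, the median ratio over all such pairs was 0.808.

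Few pairs departed far from the common shift. After centring on the median ratio, 3040 pairs (4.39%) were more than 2-fold higher in BORIS cells and 1532 (2.21%) more than 2-fold lower. With scaling to the background rate alone, 1108 (1.60%) were more than 2-fold higher and 5566 (8.04%) more than 2-fold lower, so the balance of the directions depends on the centring. Strong pairs as a whole lay below the common median, at −0.22 for 100 to under 200 summed fragments and −0.12 for 200 or more on the centred log2 scale. Of the 14384 pairs with a summed pileup of at least 100, 54 (0.375%) were more than 2-fold higher and 226 (1.57%) more than 2-fold lower after centring.

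RAD21 and SMC3 differed in the same direction as SMC1 at these pairs. At the 54 strong pairs more than 2-fold higher for SMC1, the median centred log2 ratio was 0.96 for RAD21 and 1.00 for SMC3. Both partners were above 0 at 50 of the 50 such pairs where both had a pair of regions. At the 226 strong pairs more than 2-fold lower for SMC1, the medians were −0.81 for RAD21 and −0.82 for SMC3, and both partners were below 0 at 215 of 216. Over all 13110 strong pairs where both partners had a pair, both were above 0 at 20.2% and both below 0 at 56.9%. Over all pairs, the centred SMC1 ratio had a Pearson correlation of 0.588 (Spearman 0.557, n = 46667) with that of RAD21 and of 0.637 (0.601, n = 52869) with that of SMC3. After each chromosome's median was taken away these were 0.563 and 0.617. Among strong pairs they were 0.671 and 0.716. These are descriptions over sites that share their cells, and the sites are not replicates.

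**Figure D3:**
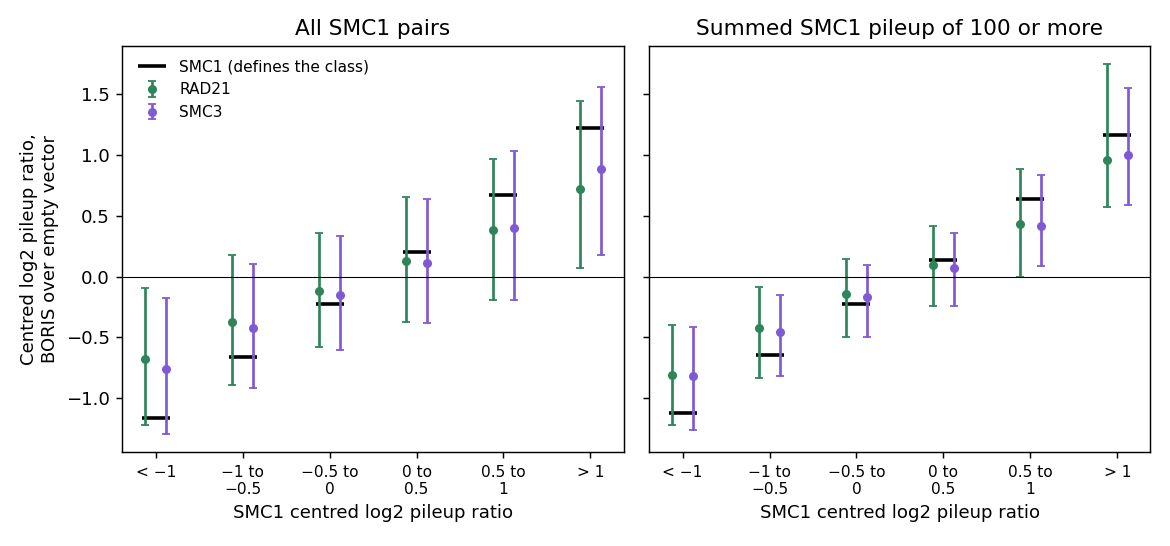
Median centred log2 pileup ratio, BORIS over empty vector, of RAD21 (green) and SMC3 (purple), by class of the SMC1 ratio, for all pairs (left) and pairs with a summed SMC1 pileup of 100 or more (right), with bars from the 10th to the 90th percentile of pairs and black lines at the SMC1 median. Both partners climb across the SMC1 classes and stay nearer 0 than SMC1 in the outer classes, reaching 0.96 and 1.00 in the highest strong class.

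At the pairs with the most extreme SMC1 ratios, the partners lay on the same side. Among pairs with a summed pileup of at least 100, the highest ratio was at chr11:119934688-119934842, with 16 SMC1 fragments in empty-vector cells and 95 in BORIS cells, a scaled ratio of 5.76 (3.37 to 10.5, counting error). The region was 155 bp wide in empty-vector cells and 399 bp in BORIS cells. SMC3 had 20 and 128 fragments there, and RAD21 was called in BORIS cells alone, with 80. The next were chr14:42712573-42712737, with 23 and 102 SMC1 fragments (4.30, 2.71 to 7.09), and chr5:22469100-22469397, with 26 and 84 (3.13, 2.00 to 5.07). RAD21 had 16 and 54 fragments at the former and 27 and 73 at the latter. The lowest ratios lay on chromosomes 12, 19 and 14. At chr12:120093390-120093930, SMC1 had 139 fragments in empty-vector cells and 19 in BORIS cells, a scaled ratio of 0.133 (0.0774 to 0.215), and the region was 541 and 171 bp wide. RAD21 had 192 and 15 fragments there and SMC3 152 and 14. At chr19:56640599-56640931, SMC1 had 82 and 18 fragments (0.213, 0.120 to 0.358), and at chr14:54772520-54772932 it had 94 and 26 (0.268, 0.167 to 0.418). RAD21 had 111 and 41 fragments at the first of these and 82 and 42 at the second.

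The pairs with the highest summed pileup were of another kind. A sum of 474 fragments was shared by 7 pairs, of which the first 3 in chromosome order are named: chr2:98502381-98503149, chr2:98506385-98507501 and chr9:3000005-3001556. All 3 sat at the ceiling of both lists, with 232 and 242 fragments, on a local background of 98.8 and 102 fragments. Their fold was therefore 2.34 in empty-vector cells and 2.36 in BORIS cells, far under the list medians of 6.78 and 6.44. The widest pair, chr9:3013679-3019492, was also at the ceiling and was 5814 bp wide in empty-vector cells and 5849 bp in BORIS cells. The other wide pairs were chr15:59478920-59482949, 4030 bp wide with 119 and 86 SMC1 fragments, and chr16:10784074-10787363, 3290 bp wide with 154 and 119.

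Summit positions were compared at the pairs, whose regions overlap by choice, so that region width bounds every distance and private regions do not enter. The BORIS summit lay a median of 19 bp from the empty-vector summit, with 31.3% within 10 bp and 7.02% more than 100 bp away. It lay at a higher coordinate in 33843 pairs and at a lower one in 34043, so neither direction prevailed. Between different antibodies in the same cells the displacement was about as large, with a median of 17 bp from SMC1 to RAD21 and from SMC1 to SMC3 in empty-vector cells. Precision followed strength: the median displacement went from 32 bp under 30 summed fragments to 18 bp at 50 to 99 and 8 bp at 200 or more. Over the same classes the share of pairs displaced by more than 100 bp went from 11.0% through 5.75% to 0.529%. Long displacements were more frequent in wide regions. In the 520 pairs wider than 1 kb, 21.9% of summits lay more than 100 bp apart, against 3.14% in pairs of at most 150 bp, where the bound is tightest. The median displacement was 24.5 bp in the former and 24 bp in the latter. Close neighbours also went with displacement, whose median was 31 bp where the next SMC1 summit was within 500 bp and 15 bp where it was over 50 kb away.

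Regions were slightly narrower in BORIS cells. The median width at pairs was 279 bp in empty-vector cells and 255 bp in BORIS cells, with a median ratio of 0.944 (0.941 to 0.946). Of the pairs, 58.0% were narrower and 41.5% wider in BORIS cells. Width went with pileup. In the 3188 pairs with the same unscaled pileup in both lists the width ratio was 0.992. Where the background-scaled pileup was at least 1.5 times lower in BORIS cells, in 20412 pairs, the ratio was 0.806 and the medians were 323 and 254 bp. Where it was at least 1.5 times higher, in 3991 pairs, the ratio was 1.41 and the medians were 160 and 232 bp. The SMC1 ratio over all pairs was lower than those of the partners, which were 0.974 for RAD21 and 1.03 for SMC3.

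**Figure D4:**
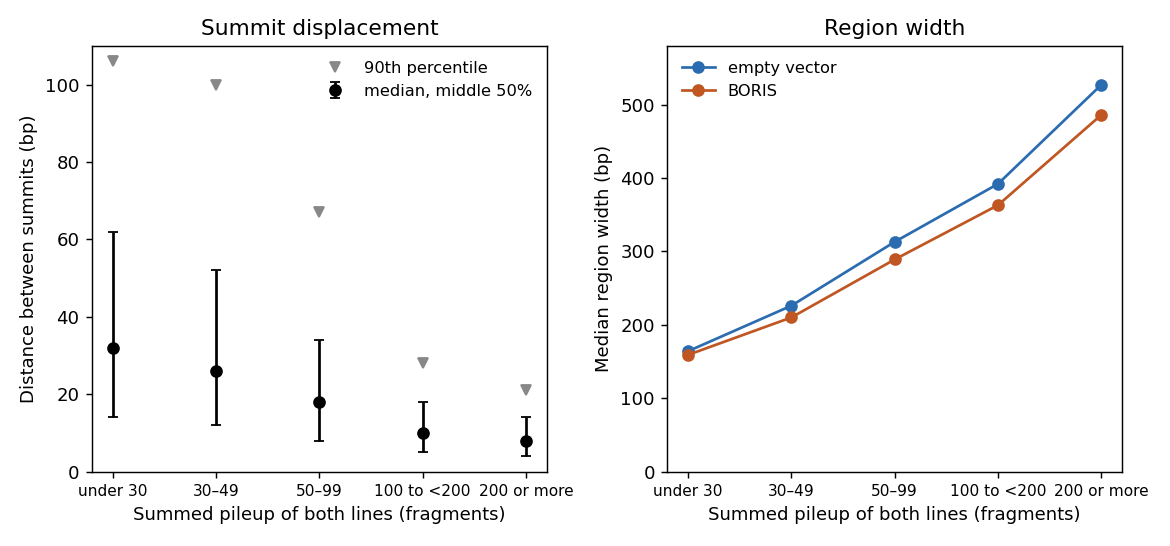
Left, distance between the empty-vector and BORIS SMC1 summits of a pair (bp; points are medians, bars the middle 50% of pairs, triangles the 90th percentile) and right, median region width (bp) in each line, both by summed pileup of the pair. Displacement shrinks from 32 to 8 bp as pileup grows, while width grows from 164 to 527 bp in empty-vector cells and from 159 to 486 bp in BORIS cells.

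Over all chromosomes together, spacing was close between the lines. The nearest SMC1 summit of the same list was a median of 2851 bp away (2805 to 2897) in empty-vector cells and 2909 bp away (2866 to 2953) in BORIS cells. Neighbours under 1 kb made up 29.1% and 28.3%, and isolated regions with no neighbour within 50 kb made up 3.08% and 3.35%. Single chromosomes differed more, in both directions. The medians in empty-vector and BORIS cells were 3490 and 5271 bp on chromosome 14 and 2810 and 2379 bp on chromosome 4.

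A private neighbour was more frequent beside private regions than beside regions called in both lines. The nearest neighbour of an empty-vector-only region was itself empty-vector-only in 32.8% of cases, against 24.7% for empty-vector regions called in both lines. For BORIS-only regions the shares were 27.5% and 20.1%. Over the whole lists, private regions were 26.6% and 22.5%. With a neighbour within 1 kb they were 37.1% and 27.0% in empty-vector cells and 29.2% and 18.7% in BORIS cells. Close neighbours were more frequent for empty-vector-only regions, 32.1% of which had a summit within 1 kb, than for BORIS-only regions, at 26.2%.

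The SMC1 pileup ratio was uneven over chromosomes. No DNA input of either line was analysed here, so SMC1 per copy of DNA and the number of copies cannot be told apart in the values by chromosome. After centring on the median of all pairs, 12 of 19 chromosomes lay within 0.05 of 0 on the log2 scale. Chromosome 4 was highest at 0.20 (0.18 to 0.22), followed by chromosome 5 at 0.13 and chromosome 11 at 0.08. Chromosome 14 was lowest at −0.38 (−0.41 to −0.35), after chromosome 8 at −0.24, chromosome 12 at −0.18 and chromosome 7 at −0.13. Before centring, all 19 chromosomes were lower in BORIS cells, from a ratio of 0.917 on chromosome 4 to 0.612 on chromosome 14.

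Private regions followed a similar order. On chromosome 4, 2442 regions were private to BORIS cells and 1205 to empty-vector cells, which gave 2.03 BORIS regions for each of the other kind (1.89 to 2.17). On chromosome 14 the counts were 418 and 1739 and their ratio 0.240 (0.216 to 0.268), and 55.9% of its empty-vector regions were called in BORIS cells. On 3 of 19 chromosomes, 4, 5 and 11, BORIS-only regions outnumbered empty-vector-only regions. The private ratio and the pileup median of a chromosome had a Spearman correlation of 0.869 over the 19 chromosomes, which share their libraries. Both come from the same lists, and regions of lower pileup were called less often, so they are not independent readouts. The chromosome medians of RAD21 and SMC3, from their own pairs, were 0.20 and 0.22 on chromosome 4 and −0.37 and −0.34 on chromosome 14. Summit displacement did not vary in this way, with medians of 18 to 22 bp on all 19 chromosomes.

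Along the chromosomes the ratio departed from the median over long stretches, with the same limit. Of 472 bins of 5 Mb with at least 20 pairs, 280 (59.3%) had a median within 0.1 of 0, 58 lay below −0.2 and 19 above 0.2. Chromosome 14 held 18 of the bins below −0.2 out of its 19, and chromosome 8 held 17 out of its 25. Chromosome 4 held 11 of the 19 bins above 0.2, all in its distal part. From a split at 85 Mb, chosen after the bins were seen, the median was 0.01 before it, with bins from −0.08 to 0.11, and 0.28 after it, with bins from 0.10 to 0.35. Before the split BORIS cells had 483 regions of their own and empty-vector cells 578. After it they had 1959 and 627. RAD21 and SMC3 medians were 0.01 and 0.01 before the split and 0.28 and 0.29 after it.

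**Figure D5:**
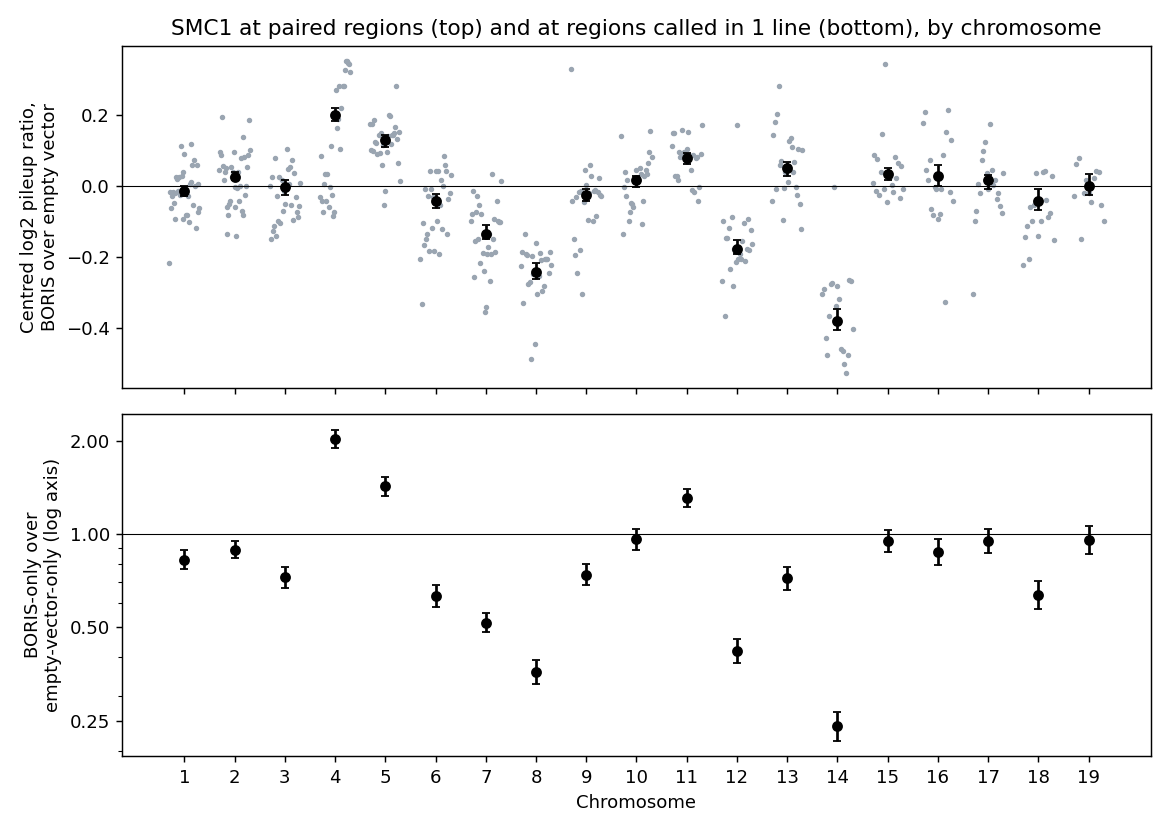
Top, centred log2 SMC1 pileup ratio, BORIS over empty vector, for bins of 5 Mb in their order along each chromosome (grey) and as the chromosome median with its 95% order-statistic interval (black). Bottom, BORIS-only over empty-vector-only SMC1 regions (log axis, 95% intervals); chromosome 4 is highest in both at 0.20 and 2.03, and chromosome 14 lowest at −0.38 and 0.240.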

How the data were processed

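SMC1, RAD21 and SMC3 ChIP-seq lists of 2 NIH3T3 lines were used, 1 library each. The submitters' processing notes name Bowtie2, Bowtie, SAMtools, MACS2 and deepTools 3.5.0 and the builds mm9 and hg19, without saying which step used which. Whether replicates were pooled, the control and the caller's settings are not given in the sources used here. Regions have no header line. The authors deposited for each region a score, a fold (a ratio over local background at the summit), a −log10 p, a −log10 q and a summit. Whole-number pileups and background rates were recovered from fold and −log10 p as a Poisson tail (pseudocount 1), within 0.001 in −log10 p, for 100% of summits of all 6 lists. Recovery and overlap counting were checked on simulated lists. Read totals are not in the lists, so depth was judged from the background rate; low pileups limit the precision of single regions, and intervals (95%) cover counting error only. Overlap meant at least 1 bp. Pairs were regions overlapping each other and no other. Ratios were scaled to the lowest background rate of each list and, where said, centred on the median pair. Named regions were the 3 private ones a line with the highest −log10 p (at most 3 kb wide, none of the other line within 1 kb), the 3 pairs of highest summed pileup (ties in chromosome order), the 3 highest and 3 lowest pileup ratios at a summed pileup of at least 100, and the 3 widest pairs. Members, classes and rules were chosen with earlier results of these data known. Alternatives tried were a minimum −log10 q of 10, equal list lengths, 50% overlap, a 1 kb margin, sex chromosomes, edge spacing, close summits, narrow regions and other scalings. The gene and promoter tables at hand belong to build GRCm38, and for that reason genes and sequences at the regions are not given. Python 3.11.15, numpy 2.4.6, pandas 2.3.3 and scipy 1.17.1 were used.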

Additional observations from a re-analysis of the deposited data

How the results depend on the processing

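No paired analysis was possible because each line had 1 library. With 1 library a side no alternative leaves a replicate out, and low pileups and the ceiling limit what single regions show. With a minimum −log10 q of 10 on either side, 72.6% of empty-vector and 81.0% of BORIS regions were called in the other line, the private ratio was 0.624, displacement 14 bp, spacing 6597 and 6974 bp and the pileup ratio 0.757. When private regions above this minimum were judged by the full list of the other line, the private ratio reversed to 1.09 (the cause was not tested). At equal list lengths the shares called in the other line were 75.1% and 76.5%, with an overlap of 50% they were 71.9% and 76.0%, and within 1 kb 81.4% and 83.7%, with a private ratio of 0.840. Between edges, spacing was 2546 and 2630 bp. The pileup ratio was 0.824 unscaled and 0.793 for summits within 100 bp. Pairs more than 2-fold higher and lower were 1.60% and 8.04% with background scaling alone and 0.375% and 1.57% at a summed pileup of at least 100, where chromosome 14 was at −0.42. Of alternatives chosen after seeing the data, leaving out chromosomes 4, 5, 7, 8, 12 and 14 gave a private ratio of 0.860 and a pileup ratio of 0.808, pileups below 50% of the ceiling gave 0.808, and centring by chromosome gave 1.84% lower pairs. The other 11 values stayed within their 95% intervals.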
